A study of Mus musculus with 12 samples.

Results

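GSCLC_2 and GSCLC_4 are lines of mouse germline stem cell-like cells in which genes of distal chromosome 6 gave more RNA than in the sister lines GSCLC_1 and GSCLC_3. They hold 4 of the 12 libraries of the series, 2 culture replicates from each line. They were set against the 4 libraries of GSCLC_1 and GSCLC_3 because of that difference, so all values of this contrast are given as a description. A fit between the pairs was run, but nothing is read from its calls. The other 4 libraries come from GSC_1 and GSC_2, germline stem cells (GSCs) established from separate testes at postnatal day 7. GSCLC lines came from reconstituted testes in organ culture, held for 3 weeks at 34°C for GSCLC_1 and GSCLC_4 (condition 1), or for 2 weeks at 37°C and 1 week at 34°C for GSCLC_2 and GSCLC_3 (condition 2). Each condition therefore holds 1 line of either pair. All lines have the background C57BL/6 x 129/SvJcl and carry the AcrAct_EGFP reporter, and all grew in StemPro-34 medium with GDNF, FGF2, LIF and EGF. Each line is 1 derivation, and its replicates show the spread of a culture, not of derivations.

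GSCs are spermatogonial stem cells that divide in culture while keeping the ability to make sperm. GDNF acts on them through the receptor Ret and its co-receptor Gfra1, and with FGF2 holds them in self-renewal, with transcription factors such as Etv5, Id4 and Zbtb16 downstream or beside it. Retinoic acid moves them to differentiation, marked by Kit, Stra8 and Sohlh1. The RNA method, SC3-seq, amplifies cDNA from 1 ng of total RNA and reads the 3′ ends of mRNA, so its values in RPM, reads scaled to a common total in each library, need no correction for transcript length. The method counts amplified copies and not molecules, so reads overstate the precision of low genes, and in bulk libraries fewer cells of a type and less RNA per cell cannot be told apart. DNA was not measured, so the differences below are of RNA only.

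A total of 11453 genes reached 5 RPM in at least 2 of the 8 GSCLC libraries. The lowest steps of the RPM values imply 3031705 to 4230230 reads in a GSCLC library, and 3 reads correspond to 0.646 to 0.99 RPM over the 12 libraries. Across genes, Pearson's r averaged 0.957 between libraries of GSCLC_2 and GSCLC_4, 0.961 between GSCLC_1 and GSCLC_3, 0.95 across the pairs and 0.972 within a line. Germ cell genes were high in the 8 libraries. Dazl, which binds RNA and promotes its translation in germ cells, read 1430 and 1320 RPM in GSCLC_2, 1560 and 1510 in GSCLC_4, 1360 and 1440 in GSCLC_1 and 1450 and 1310 in GSCLC_3. Ddx4, a germ cell RNA helicase, lay between 464 and 566 RPM in all 8.

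A second region, distal chromosome 3, was lower in the same lines, and it holds a cluster of guanylate-binding protein (Gbp) genes that were lower with it. These encode GTPases that interferons induce. Their promoters are shown because the 4 neighbours differ together and share a stretch of one type. The sequences lie on the plus strand of GRCm38, from RefSeq, and end before the first base of the gene, for chr3:142594597-142594815 (Gbp1, listed there as Gbp2b), chr3:142620413-142620662 (Gbp2), chr3:142559794-142560015 (Gbp3, the more upstream of its 2 entries) and chr3:142530086-142530335 (Gbp7). Capitals mark matches to TTTCNNTTTC, a form of the interferon-stimulated response element, searched on both strands.
Gbp1: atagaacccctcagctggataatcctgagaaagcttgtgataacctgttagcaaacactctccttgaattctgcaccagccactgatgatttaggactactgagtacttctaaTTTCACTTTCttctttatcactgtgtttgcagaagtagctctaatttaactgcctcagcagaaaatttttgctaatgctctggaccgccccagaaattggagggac
Gbp2: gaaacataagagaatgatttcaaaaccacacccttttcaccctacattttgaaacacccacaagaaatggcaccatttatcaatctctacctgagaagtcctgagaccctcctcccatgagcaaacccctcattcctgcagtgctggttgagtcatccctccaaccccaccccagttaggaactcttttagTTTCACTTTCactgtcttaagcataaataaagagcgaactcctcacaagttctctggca
Gbp3: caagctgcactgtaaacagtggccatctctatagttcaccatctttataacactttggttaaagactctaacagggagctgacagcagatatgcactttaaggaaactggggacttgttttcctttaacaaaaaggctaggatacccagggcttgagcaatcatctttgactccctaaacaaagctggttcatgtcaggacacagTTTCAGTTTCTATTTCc
Gbp7: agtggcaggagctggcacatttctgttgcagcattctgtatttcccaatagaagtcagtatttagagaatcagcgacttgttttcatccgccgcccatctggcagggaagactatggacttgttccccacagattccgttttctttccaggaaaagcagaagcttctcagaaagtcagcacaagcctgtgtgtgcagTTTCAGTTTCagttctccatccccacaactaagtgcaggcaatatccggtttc
The match begins 106 bases before the first base of the gene in Gbp1, 59 in Gbp2, 17 in Gbp3 and 53 in Gbp7. In Gbp3 2 matches overlap, and the capitals cover both. Of 32851 RefSeq promoters, each taken as the 250 bases before its transcript start, 978 hold a match, or 2.98%. A match is a run of letters and shows no binding.

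Distal chromosome 6 was higher in GSCLC_2 and GSCLC_4 along its whole length from about 80 Mb to the end. The median of its 310 tested genes was 0.58 on the log2(RPM + 1) scale (quartiles 0.37 and 0.73), against 0.07 over all 11453 genes and 0.09 over the 219 tested genes before 80 Mb. Among the 218 genes of the region with at least 20 RPM, the median ratio of RPM was 1.48. The median was 0.51 for GSCLC_4 minus GSCLC_1 and 0.58 for GSCLC_2 minus GSCLC_3. These differences share no library. In both, 255 of the 310 genes (82.3%) were above 0, where the genes outside chromosomes 6 and 8 and distal chromosome 3 gave 37.5%.

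The share of all tested RPM that came from this region shows the same split in single libraries. It was 3.98% and 4.04% in the replicates of GSCLC_2 and 3.89% and 3.98% in GSCLC_4. In GSCLC_1 it was 2.95% and 3.00%, and in GSCLC_3 2.81% and 2.80%. The GSC libraries lay at 2.89% to 3.02%, beside GSCLC_1 and GSCLC_3. Against the mean of both GSC lines, the median of the region was 0.47 in GSCLC_2 and 0.56 in GSCLC_4, and 0.01 in GSCLC_1 and -0.09 in GSCLC_3; these 4 values share the GSC libraries.

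**Figure D1:**
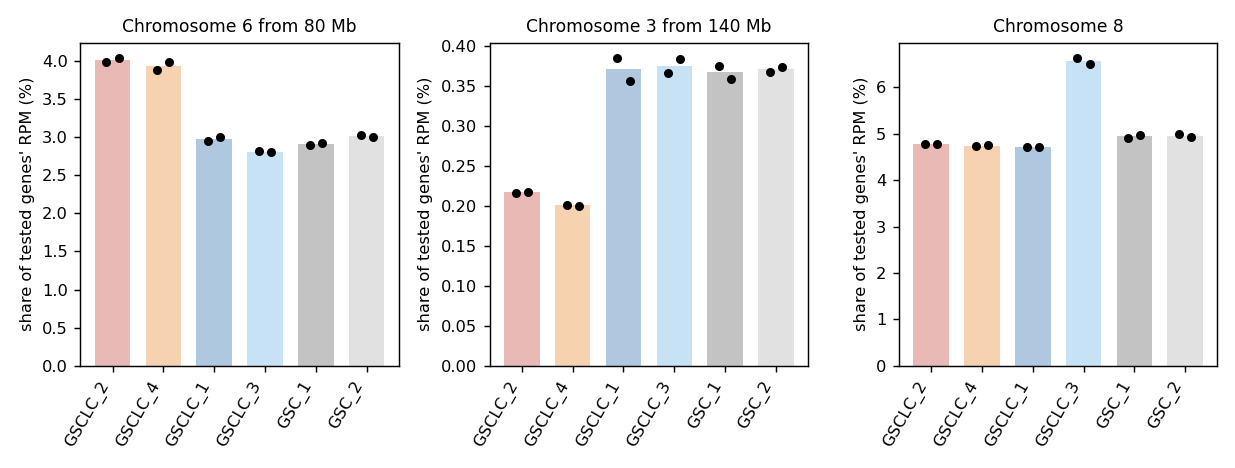
Share of the RPM of all tested genes (%, y axis from 0) that came from chromosome 6 from 80 Mb, chromosome 3 from 140 Mb and chromosome 8, by line; bars are line means and points are the 2 libraries. GSCLC_2 and GSCLC_4 stand above the other lines in the first panel and below them in the second, and GSCLC_3 alone is high in the third.

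A single dividing position was sought, and the median difference was 0.093 before it and 0.576 after it. The position that best divided the chromosome into a lower and a higher stretch lay between Suclg1, a subunit of a mitochondrial ligase that ends at 73276907, and the predicted gene Gm20594, which starts at 79818031. Suclg1 read 187 and 293 RPM in GSCLC_2, 290 and 270 in GSCLC_4, 225 and 264 in GSCLC_1 and 236 and 205 in GSCLC_3, with overlap. Mrpl19, a mitochondrial ribosomal protein and the next gene, starts at 81957826. It read 63.4 and 71.0 RPM in GSCLC_2 and 73.1 and 71.6 in GSCLC_4, against 65.3 and 44.9 in GSCLC_1 and 50.6 and 51.8 in GSCLC_3. Mrpl19 thus overlapped too, through replicate 1 of GSCLC_1. For single libraries the best position ranged from Kcmf1, which starts at 72841114, to Mrpl19. Few tested genes lie between, so the place is known only to within this stretch. Beyond it, the medians of 7 windows of 10 Mb lay between 0.42 and 0.64, with no fall towards the end. The lowest window, from 90 to 100 Mb, had 0.54 for GSCLC_4 minus GSCLC_1 but only 0.23 for GSCLC_2 minus GSCLC_3. The smallest of the 7 windows held 15 tested genes. Over 245 windows with at least 5 tested genes outside chromosome 8 and distal chromosomes 6 and 3, the medians lay between -0.12 and 0.52. For GSCLC_2 minus GSCLC_3 alone, those windows reached 0.44. In the 186 of them with at least 20 tested genes, the medians between the pairs lay between -0.08 and 0.25.

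**Figure D2:**
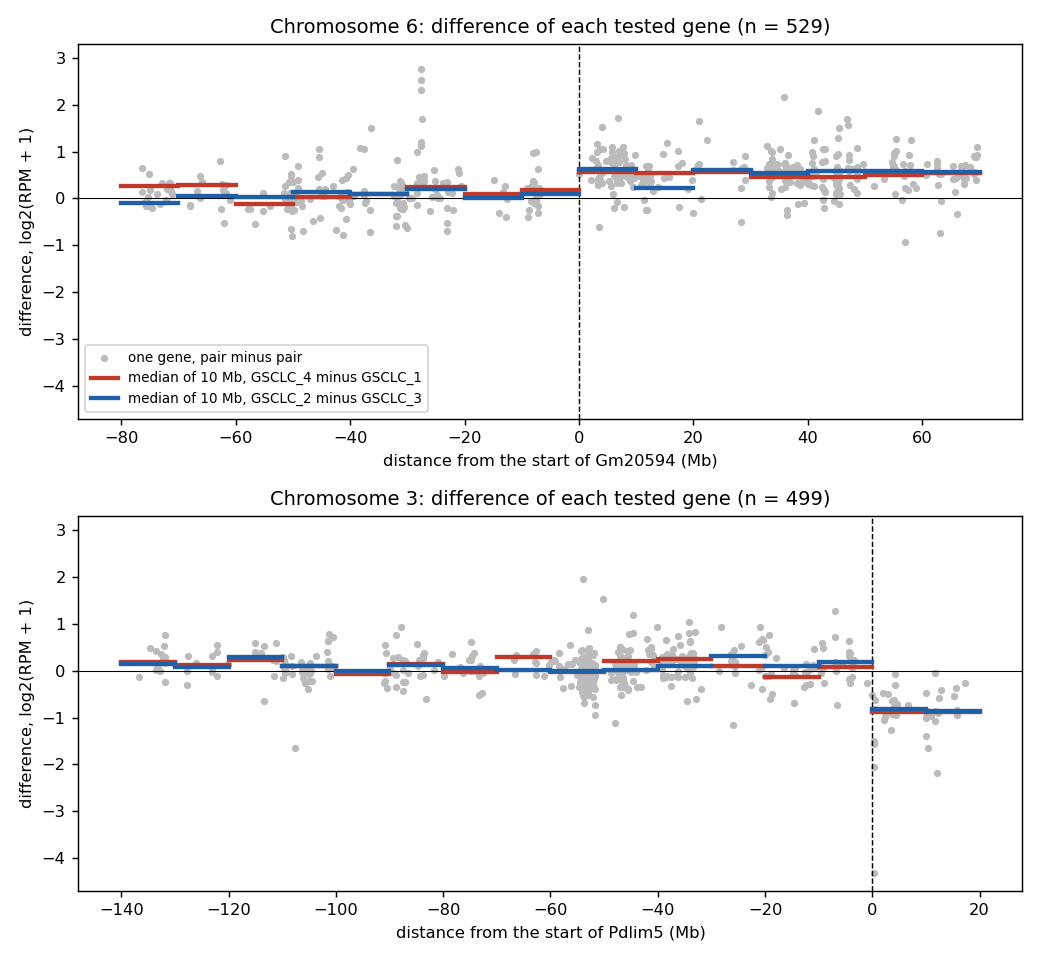
Difference in log2(RPM + 1) of each tested gene of chromosomes 6 (529 genes) and 3 (499 genes), plotted against the distance in Mb from the first gene after the step (dashed line). Grey points are the difference between the pairs, and bars are medians of 10 Mb for GSCLC_4 minus GSCLC_1 and GSCLC_2 minus GSCLC_3; both bars step up on chromosome 6 and down on chromosome 3 at the dashed line. The group of points near 28 Mb before the step on chromosome 6 is the Hoxa cluster.

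Of the 310 genes, 157 had all 4 libraries of GSCLC_2 and GSCLC_4 above all 4 of GSCLC_1 and GSCLC_3, and 2 had them all below (the sialyltransferase gene St8sia1 at -0.73 and the predicted gene Gm8203 at -0.35). Over all tested genes, 7.54% were separated upward in this way (864 genes) and 3.52% downward (403 genes). After quantile normalisation the same counts were 639 upward and 565 downward. Since the lines were chosen by this contrast, nothing is read from the count. In size, 24 of the 310 differences were at or under 0, 26 were between 0 and 0.25, 189 between 0.25 and 0.75, and 71 above 0.75.

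The largest differences among separated genes with at least 20 RPM were those of A2m, Nagk, Acrbp, Dera, Kbtbd8, D6Mm5e, Alms1 and Tulp3, at 1.08 to 1.86. Nagk, a kinase that salvages N-acetylglucosamine, lies on chromosome 6 at 83794983 to 83802556. It read 47.6 and 46.2 RPM in GSCLC_2 and 49.6 and 45.8 in GSCLC_4, against 14.0 and 18.7 in GSCLC_1 and 16.1 and 14.6 in GSCLC_3. The GSC libraries lay between, at 27.1 to 42.6 RPM. Acrbp, the acrosin-binding protein of the sperm acrosome, read 27.8 and 32.6 in GSCLC_2, 36.6 and 22.1 in GSCLC_4, 10.3 and 15.1 in GSCLC_1 and 13.3 and 8.09 in GSCLC_3. For Acrbp the GSC lines (27.0 to 37.5 RPM) stood with GSCLC_2 and GSCLC_4, so its difference comes from lower levels in the other pair. A2m, a protease inhibitor of plasma, had the largest difference (1.86), with 35.9 and 31.6, then 26.6 and 38.9 RPM, against 25.1 and 8.04, then 1.98 and 9.70. Its replicates in GSCLC_1 lay far apart, and the gap between the pairs was narrow. Alms1 and Tulp3, both needed for primary cilia, differed by 1.10 and 1.08, and Dera, an aldolase of deoxyribose phosphate, by 1.25.

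Etv6, an ETS repressor, was separated near the median of the region (0.57). Ret, the GDNF receptor, was among the members that did not follow. It lies at 118151748 to 118197744, far inside the region, and read 245 and 226 RPM in GSCLC_2, 238 and 276 in GSCLC_4, 221 and 285 in GSCLC_1 and 280 and 288 in GSCLC_3. The 8 values overlap fully, and the difference was -0.12. The GSC lines were at 267 to 294 RPM. Of genes with at least 20 RPM in the higher pair, the 10 lowest in the region ran from -0.61 to -0.08. Bola3, an iron-sulphur cluster assembly factor, was the lowest, at 37.1 and 31.0 RPM in GSCLC_2 and 21.8 and 17.5 in GSCLC_4, against 32.0 and 35.5, then 51.2 and 43.4. Bhlhe41, a repressor of the circadian clock, was at -0.33, and the taurine transporter gene Slc6a6 at -0.25. These 10, chosen after their values were seen, hold 5 predicted genes (Gm4604, Gm8203, Gm8213, Gm10224 and Gm5879), whose reads may be shared with near-identical copies.

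Cell cycle genes of the region were uneven. Ccnd2, the D-type cyclin of spermatogonia, read 372 and 341 RPM in GSCLC_2 and 277 and 321 in GSCLC_4, against 254 and 302 in GSCLC_1 and 325 and 197 in GSCLC_3, with overlap and a difference of 0.30. Cdkn1b, the cell cycle inhibitor p27, was separated but low: 10.0 and 9.65 RPM in GSCLC_2, 16.5 and 20.1 in GSCLC_4, 9.13 and 6.86 in GSCLC_1 and 7.35 and 8.36 in GSCLC_3. Ncapd2, a condensin subunit, was separated at 541 and 552, then 475 and 467 RPM, against 355 and 353, then 321 and 349. Foxm1, a transcription factor of mitotic genes, overlapped, with 148 and 166, then 93.9 and 169, against 108 and 119, then 105 and 86.5. The difference was 0.43.

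Among surface, germ cell and repair genes, Cd9, a tetraspanin used to enrich spermatogonial stem cells, read 410 and 434 RPM in GSCLC_2 and 287 and 335 in GSCLC_4, against 240 and 253 in GSCLC_1 and 258 and 207 in GSCLC_3. The pairs did not overlap, and the GSC lines lay at 290 to 321 RPM. M6pr, a receptor that carries enzymes to lysosomes, read 536 and 472, then 552 and 591, against 290 and 330, then 341 and 284. The DNA repair genes Rad18 (0.66) and Rad52 (0.39) and the chromatin remodeller Chd4 (0.36) were separated. Dppa3, a germ cell factor that shields DNA methylation, overlapped at a low level, from 2.97 to 6.26 RPM. Vhl, which marks HIF proteins for decay, overlapped too, with 15.8 and 62.0 RPM in the replicates of GSCLC_4.

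Enzymes of glycolysis in the region differed from gene to gene. Hk2, a hexokinase, read 63.7 and 53.7 RPM in GSCLC_2 and 44.3 and 42.6 in GSCLC_4, against 34.2 and 29.8 in GSCLC_1 and 22.6 and 28.8 in GSCLC_3. The glucose transporter gene Slc2a3 read 196 and 187, then 192 and 240, against 144 and 89.1, then 121 and 116. Both were separated. Gapdh (0.23), Tpi1 (0.57) and Ldhb (0.29) overlapped. Of 21 tested genes of a glycolysis list, 4 were separated upward and 0 downward, against 7.54% and 3.52% over all genes, and the list's median was 0.06 against 0.07. The other separated members, Hk1 (0.75) and Pfkp (0.70), lie on chromosomes 10 and 13.

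Of the 18 genes of distal chromosome 6 picked for description, the separated ones included Cd9, Cdkn1b, Chd4, Etv6, Rad18, Rad52 and M6pr. Phb2, a prohibitin, was among those that overlapped, with 820 and 843 RPM in GSCLC_2, 509 and 701 in GSCLC_4 and 474 to 611 in the other pair. Between GSCLC_4 and GSCLC_2, 0 of the 310 genes were called by limma, a linear model across all genes, with Benjamini-Hochberg adjustment at 0.05, and 54 (17.4%) had an unadjusted p under 0.05, against 15.9% over all genes. Their median difference between these lines was 0.07, against 0.08 over all tested genes.

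Distal chromosome 3 went the other way. This region was singled out after its values were seen. From 140 Mb on, all 47 tested genes were below 0, with a median of -0.86, and 33 of them had all 4 libraries of GSCLC_2 and GSCLC_4 below the other 4 (3.52% over all genes). The median was -0.88 for GSCLC_4 minus GSCLC_1 and -0.81 for GSCLC_2 minus GSCLC_3. Among 31 genes with at least 20 RPM the median ratio of RPM was 0.536. The region gave 0.216% and 0.218% of tested RPM in GSCLC_2 and 0.201% and 0.201% in GSCLC_4. In GSCLC_1 it gave 0.385% and 0.357%, in GSCLC_3 0.366% and 0.383%, and in the GSC libraries 0.359% to 0.375%. As on chromosome 6, GSCLC_1 and GSCLC_3 stood with the GSC lines, and GSCLC_2 and GSCLC_4 apart. The step lay between Pdha2, which ends at 141212355, and Pdlim5, which starts at 142239585, and for some lines and libraries 1 gene to either side.

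Gbp1, on chromosome 3 at 142594816 to 142619179, was listed at 0 in 3 of the 4 libraries of GSCLC_2 and GSCLC_4 and at 1.3 RPM in replicate 2 of GSCLC_2. It read 24.0 and 16.8 RPM in GSCLC_1, 19.8 and 39.6 in GSCLC_3 and 22.2 to 29.1 in the GSC lines. Gbp3 read 3.51 and 6.78 in GSCLC_2 and 5.51 and 4.95 in GSCLC_4, against 33.4 and 13.7, then 24.0 and 31.8. Gbp2 read 23.6 and 20.3, then 26.8 and 21.4, against 63.9 and 44.7, then 66.4 and 104. Gbp7 was lower by 1.56 on the log2 scale, at 1.57 to 4.26 RPM against 8.48 to 17.3. All 4 were separated and lay past the median of the region. Gbp1 differed by -4.33, a value that depends on the pseudocount, Gbp3 by -2.06 and Gbp2 by -1.50. The Gbp genes are neighbours of 1 family. Whether reads were shared among them was not tested, so their single levels are uncertain. A list of 24 other interferon-induced genes had 8 tested members, of which 0 were separated upward and 1 downward, Ifitm1 at -0.58. Across all tested genes the shares were 7.54% and 3.52%, so nothing is read from this count.

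The other genes of distal chromosome 3 have mixed roles. Gng5, a G protein gamma subunit and the most abundant member, read 677 and 685 RPM in GSCLC_2 and 491 and 480 in GSCLC_4, against 1060 and 1030 in GSCLC_1 and 1060 and 1210 in GSCLC_3. Srsf11, a splicing factor, read 110 and 107, then 84.2 and 95.7, against 209 and 176, then 198 and 185. Hs2st1, which sulphates heparan sulphate, the co-receptor of FGF, read 48.1 and 66.5, then 49.1 and 62.3, against 127 and 107, then 106 and 129. These differed by -0.92, -0.95 and -1.05, and each kept a clear gap between the pairs. Pigk, a subunit of the enzyme that attaches GPI anchors, differed by -1.64, the prenylation enzyme gene Rabggtb by -1.08 and the single-strand DNA-binding factor gene Fubp1 by -0.49. Lhx8, a LIM homeobox gene, was low throughout, at 1.50 and 0.522, then 5.01 and 0.33 RPM, against 11.1 and 7.56, then 14.4 and 7.28; the GSC lines lay at 0.492 to 1.3, so here GSCLC_1 and GSCLC_3 stood apart from the GSC lines. Acadm, an enzyme of fatty acid oxidation, did not follow the region (-0.04). It read 52.4 and 50.3, then 72.1 and 68.3, against 62.8 and 55.8, then 56.0 and 74.9.

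Chromosome 8 was lower in GSCLC_2 and GSCLC_4 by a median of 0.18 over 615 tested genes (-0.18), but within conditions the values were 0.06 for GSCLC_4 minus GSCLC_1 and -0.42 for GSCLC_2 minus GSCLC_3. The chromosome gave 6.63% and 6.51% of tested RPM in GSCLC_3 and 4.71% to 4.78% in GSCLC_1, GSCLC_2 and GSCLC_4; the GSC libraries gave 4.92% to 5.00%. The difference on chromosome 8 thus follows GSCLC_3 and is not shared by both lines with a higher distal chromosome 6. Of the 615 genes, 7 were separated upward (1.14%) and 46 downward (7.48%), against 7.54% and 3.52% over all genes. Dusp4, a phosphatase that turns off ERK, differed most (-2.23). It read 6.52 and 7.04 RPM in GSCLC_2 and 12.5 and 7.59 in GSCLC_4, against 35.1 and 27.2 in GSCLC_1 and 89.3 and 36.1 in GSCLC_3, with the GSC lines between at 17.1 to 23.1. Against the chromosome, Sall1, a zinc finger repressor, was higher, at 20.8 and 21.1, then 30.8 and 32.0, against 16.5 and 15.8, then 11.9 and 11.1. The other genes named by size were Tktl2 (0.79) and Stxbp2 (0.68), which were higher, and Pgbd5 (-1.16) and Zfp703 (-1.07), which were lower.

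**Figure D3:**
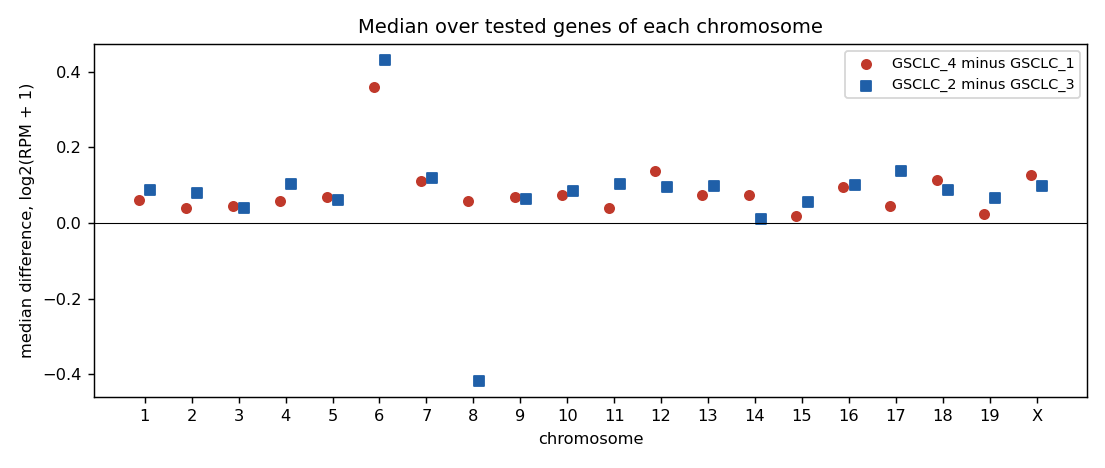
Median difference in log2(RPM + 1) over the tested genes of each chromosome (x axis), for GSCLC_4 minus GSCLC_1 (circles) and GSCLC_2 minus GSCLC_3 (squares). Both are high on chromosome 6, only the second is low on chromosome 8, and the 47 genes of distal chromosome 3 do not move the median of the 499 tested genes of that chromosome below 0.

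Beyond these chromosomes the median was near that of all genes. Over the 17 chromosomes other than 3, 6 and 8 it ran from 0.03 to 0.11. Of 10309 tested genes outside chromosomes 6 and 8, 679 were separated upward and 349 downward, and 33 of the latter are those of distal chromosome 3. The genes that follow stood out by size.

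Hoxa genes, which pattern the posterior body and limbs, were higher in GSCLC_2 and GSCLC_4. The cluster lies on chromosome 6 near 52 Mb, before the step and apart from the distal region. Hoxa10, at 52231197 to 52240854, read 20.6 and 14.1 RPM in GSCLC_2 and 15.8 and 23.7 in GSCLC_4, against 4.28 and 6.38 in GSCLC_1, 0.283 and 0.27 in GSCLC_3 and 1.51 to 3.91 in the GSC lines. Hoxa13, at 52258853 to 52260880, read 10.3 and 12.3, then 12.3 and 10.6, against 3.14 and 2.84, then 0.283 and 0. Of 11 Hoxa genes 4 were tested, and Hoxa10 and Hoxa13 were the 2 separated ones. Hoxa3 read 2.51 and 2.35 RPM in GSCLC_2 and 7.77 and 13.2 in GSCLC_4, against 2.57 and 2.13 in GSCLC_1 and 3.68 and 0 in GSCLC_3. All Hoxa genes together summed to 41.1 and 37.0 RPM in GSCLC_2 and 57.1 and 66.3 in GSCLC_4, against 14.0 and 17.3 in GSCLC_1, 6.78 and 1.89 in GSCLC_3 and 4.59 to 10.4 in the GSC libraries. Singled out after their values were seen, the antisense transcript Hoxa11as and the homeobox gene Evx1 beside the cluster differed by 2.32 and 1.71 at under 10 RPM. Among neighbours outside it the difference was 1.00 for Nfe2l3, at 2.26 to 11.2 RPM with overlap, 0.47 for Skap2, 0.33 for Snx10 and 0.33 for Hibadh. The Hoxb cluster, on chromosome 11, had 0 of 8 tested members separated, against 11.1% of all genes in either direction.

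Genes tied to the stem cell state differed in both directions. Sohlh1, a transcription factor of spermatogonial differentiation, read 1.25 and 4.17 RPM in GSCLC_2 and 2.25 and 9.90 in GSCLC_4, against 17.1 and 17.0 in GSCLC_1, 31.1 and 51.5 in GSCLC_3 and 27.6 to 65.8 in the GSC lines. Sox2, a pluripotency factor on proximal chromosome 3 (34649995 to 34652461), read 22.3 and 23.7, then 57.6 and 50.1, against 118 and 92.2, then 113 and 128. The GSC lines read 30.3 to 37.9, so Sox2 was above them in GSCLC_1, GSCLC_3 and GSCLC_4 and below them in GSCLC_2. Id3, an inhibitor of helix-loop-helix factors, read 40.6 and 33.7, then 35.3 and 32.3, against 91.3 and 97.9, then 86.8 and 48.8. Utf1, a chromatin factor of undifferentiated spermatogonia, was higher, with 93.5 and 71.2, then 58.9 and 47.5, against 26.5 and 25.3, then 33.6 and 15.1. Sox3, an X-linked factor of spermatogonia, differed by 1.38 and was 5.65 and 37.2 RPM in the replicates of GSCLC_3, the latter just under the lowest value of the other pair, 37.8.

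Of 355 tested members of all lists, 26 were separated upward (7.32%) and 13 downward (3.66%), near the 7.54% and 3.52% of all genes. Of 32 tested genes on a list of spermatogonial stem cell self-renewal, 2 were separated upward (Cd9 and Utf1) and 2 downward (Sohlh1 and Id3), with a median of 0.06. Sohlh1 is also on the list of spermatogonial differentiation. Gfra1 differed by 0.28, Etv5 by 0.10, Zbtb16 by 0.07 and Id4 by -0.12, all with overlap. Nanos2, an RNA-binding protein that keeps the undifferentiated state, overlapped at 0.61, with 5.26 and 22.1 RPM in the replicates of GSCLC_4. The T-box gene T was at 1.98 to 8.52 RPM in GSCLC_2 and GSCLC_4, against 17.1 and 12.3 in GSCLC_1 and 58.5 and 6.74 in GSCLC_3, and so overlapped through 1 library. Of 29 germ cell core genes, 0 were separated upward and 1 downward, Mael of the piRNA pathway, at 234 and 244, then 362 and 316, against 501 and 433, then 557 and 565 RPM. Of 15 tested pluripotency genes, Tbx3 and Utf1 were separated upward and Sox2 downward. Kit (0.07), Stra8 (0.54) and Pou5f1 (0.31) overlapped. Of 22 tested genes of the ERK response to FGF and GDNF, Phlda1 (0.50) and Spry2 (0.71) were separated upward and Dusp4 and Junb (-0.53) downward, with Egr1 at -0.15 and Spry4 at 0.10.

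**Figure D4:**
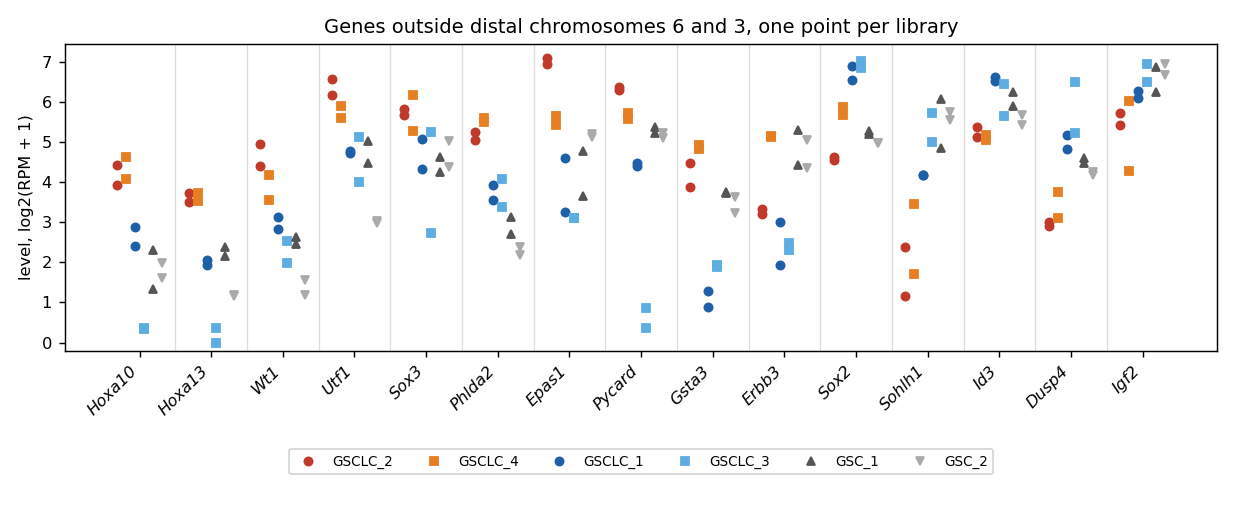
Level in log2(RPM + 1) of 15 genes (x axis) outside distal chromosomes 6 and 3, 1 point for each of the 12 libraries, coloured by line. GSCLC_2 and GSCLC_4 lie above GSCLC_1 and GSCLC_3 from Hoxa10 to Erbb3 and below them from Sox2 to Igf2.

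Among separated genes with at least 20 RPM in the higher pair, the largest upward differences outside chromosomes 6 and 8 were those of Pycard, Gsta3, Epas1, Erbb3, 4933437F05Rik, Phlda2, Gm595 and Ryr1, at 1.46 to 3.47. Epas1, the hypoxia-inducible factor HIF-2α, read 135 and 123 RPM in GSCLC_2 and 41.6 and 48.8 in GSCLC_4, against 23.1 and 8.51 in GSCLC_1 and 7.63 and 7.55 in GSCLC_3. Pycard, the adaptor of inflammasomes, read 81.5 and 77.5, then 46.8 and 51.5, against 20.0 and 21.3, then 0.283 and 0.809; the GSC lines held 33.0 to 40.7. In GSCLC_3 it was thus at or under the floor of 3 reads. Gsta3, a glutathione transferase, read 21.1 and 13.8, then 29.6 and 27.4, against 0.856 and 1.42, then 2.83 and 2.70, with the GSC lines at 8.42 to 12.4. Erbb3, a receptor of neuregulin, read 8.27 and 9.13, then 34.1 and 34.6, against 2.85 and 7.09, then 3.96 and 4.58, with 2.66 for GSCLC_4 minus GSCLC_1 and 0.88 for GSCLC_2 minus GSCLC_3 (adjusted p = 0.127 by limma for the gap between them, in a test added after the data were seen). Ryr1, a calcium release channel, differed by 1.46, Gm595 by 1.59 and 4933437F05Rik by 1.66.

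Of 26 tested imprinted genes, 1 was separated in each direction, against 7.54% upward and 3.52% downward over all genes. Nothing is read from these counts. Phlda2, a maternally expressed gene that restrains placental growth, read 37.1 and 32.1 RPM in GSCLC_2 and 44.1 and 47.2 in GSCLC_4, against 10.8 and 14.2 in GSCLC_1, 15.8 and 9.43 in GSCLC_3 and 3.57 to 7.75 in the GSC lines. Igf2, a paternally expressed growth factor, read 41.6 and 52.2, then 18.5 and 63.7, against 67.3 and 76.4, then 121 and 89.5. These were the separated ones among 26 tested imprinted genes, and the rest overlapped. Beside Sohlh1 and Sox2, the largest downward differences among such genes outside chromosomes 6 and 8 and distal chromosome 3 were Tmem132e (-1.36), the splicing factor gene Hnrnph1 (-1.35), the translation factor gene Eif4g3 (-1.32), Ier5 (-1.17), Id3 and Igf2. Hnrnph1 read 143 and 145, then 122 and 168, against 393 and 276, then 379 and 439 RPM.

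On chromosome 6 before 80 Mb, 21 of 219 tested genes were separated upward (9.59%) and 6 downward (2.74%). Over all genes the shares were 7.54% and 3.52%. Of the downward genes with at least 20 RPM in the higher pair, the largest differences were those of 3 genes. These were Smo (-0.80), the signal transducer of the hedgehog pathway, the sialomucin gene Podxl (-0.69) and the filamin gene Flnc (-0.65). Of the separated members of all 22 lists, 6 of 26 upward lay on distal chromosome 6 and 1 of 13 downward on distal chromosome 3, the meiotic gene Msh4. Over all tested genes, 157 of 864 upward and 33 of 403 downward lay in these regions, so nothing is read from the counts of the lists.

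Wt1, a transcription factor of Sertoli cells and the gonadal surface, was higher in GSCLC_2 (29.8 and 20.1 RPM) and GSCLC_4 (10.8 and 17.2) than in GSCLC_1 (7.70 and 6.15), GSCLC_3 (4.81 and 2.97) and the GSC lines (1.28 to 5.22). It was the 1 separated gene of 8 tested Sertoli markers out of 17. Over all genes 7.54% were separated upward and 3.52% downward, so nothing is read from this count or from those of the lists below. The summed level of the Sertoli list was 416 to 539 RPM in GSCLC_2 and GSCLC_4 and 422 to 564 in the other pair. Amh was listed at 0 in all 12 libraries, Fshr was at most 0.25 RPM and Sox9 at 1.32 to 2.87 RPM in GSCLC_2 and GSCLC_4. These are low members and do not stand for the list, since the members that carry most of its sum are not named here. Leydig and peritubular markers summed to 18.8 to 27.7 RPM against 18.0 to 58.4, with 0 of 2 tested genes separated and Lhcgr and Cyp17a1 at 0 throughout. Macrophage and endothelium markers summed to 15.3 to 21.8 RPM against 12.3 to 25.7, with the 1 tested gene overlapping. The fibroblast list had 0 of 20 tested genes separated and summed to 541 to 861 RPM against 543 to 782.

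GSCLC_4 and GSCLC_2 could be tested against each other, since their difference did not enter the choice. They came from different conditions, so line and condition cannot be told apart, and the p-values speak for these lines and their culture replicates. By limma with Benjamini-Hochberg adjustment, 67 genes differed (0.585% of those tested), 29 higher in GSCLC_4 (0.253%) and 38 lower (0.332%). After quantile normalisation 97 were called, 35 higher and 62 lower. The 2 within-condition differences were unequal for 96 genes (0.838%) by the same tool, in a test added after the data were seen. With 1 library left out, the count between GSCLC_4 and GSCLC_2 was 11 without replicate 1 of GSCLC_2, 28 without its replicate 2 or without replicate 1 of GSCLC_4, and 231 without replicate 2 of GSCLC_4. Distal chromosomes 6 and 3 held 0 of the 67 (on distal chromosome 3, 7 of 47 genes, or 14.9%, had an unadjusted p under 0.05), chromosome 8 held 3 (Upf1 and Fkbp8, which were lower, and Herpud1) and chromosome 6 before 80 Mb held 2 (Skap2 and Tax1bp1, both near the Hoxa cluster).

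Rhox5, an X-linked homeobox gene, gave the largest rise. It read 69.4 and 68.3 RPM in GSCLC_4 and 1.50 and 2.61 in GSCLC_2, with 1.62 to 3.42 in the other GSCLC lines and 0.978 to 3.83 in the GSC lines (log2 4.54 ± 0.41 SE, adjusted p = 3.46e-06 by limma). Rhox5 is also on the Sertoli list, whose sum was 501 and 539 RPM in GSCLC_4 and 416 and 478 in GSCLC_2. Id1, an inhibitor of helix-loop-helix factors, rose from 13.8 and 12.8 RPM in GSCLC_2 to 45.6 and 39.9 in GSCLC_4 (1.61 ± 0.29, adjusted p = 0.0111 by limma). Erbb3 rose by 1.87, Apba3, an adaptor protein, by 1.87, Herpud1, of the endoplasmic reticulum stress response, by 1.57 and the pseudogene Mageb17-ps by 3.14.

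Trf, the iron carrier transferrin, gave the largest fall. It read 76.7 and 81.7 RPM in GSCLC_2, 13.0 and 11.9 in GSCLC_4, 48.2 and 34.3 in GSCLC_1, 20.1 and 15.9 in GSCLC_3 and 59.7 to 118 in the GSC lines (-2.58 ± 0.22, adjusted p = 1.92e-06 by limma). Ppm1j, a protein phosphatase, read 54.9 and 57.1 in GSCLC_2, 10.0 and 18.8 in GSCLC_4, 42.8 and 56.3 in GSCLC_1 and 12.4 and 8.36 in GSCLC_3. It was thus low in 1 line of each pair. The histone gene Hist1h2ao fell by 2.33, and Hjurp, which loads the centromere histone, by 1.83. Mtap7d3, a microtubule protein, fell by 2.18 and the orphan receptor gene Gprc5c by 1.79. Histone genes of this family are near-identical, so the level of Hist1h2ao is uncertain.

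**Figure D5:**
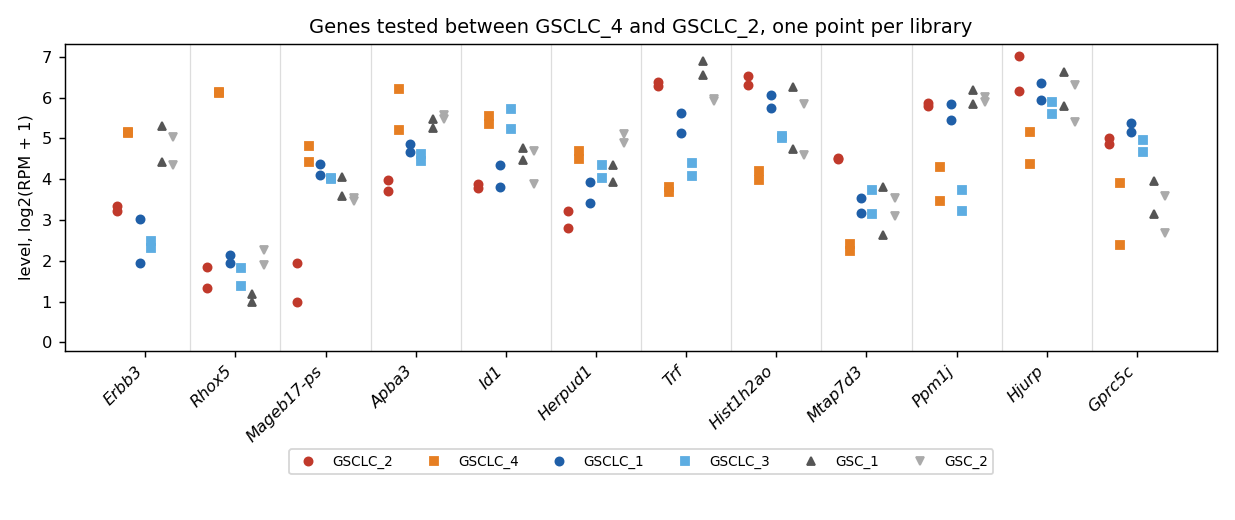
Level in log2(RPM + 1) of the 12 genes named for GSCLC_4 against GSCLC_2 (x axis), 1 point for each of the 12 libraries, coloured by line. In the 6 genes from Erbb3 to Herpud1 both libraries of GSCLC_4 lie above those of GSCLC_2, and in the 6 from Trf to Gprc5c below.

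Of 355 tested list members, 10 were called between GSCLC_4 and GSCLC_2 (2.82%), against 0.585% over all genes. The lists were chosen with earlier results of these data known, so nothing is read from the higher share. Of the self-renewal list Id1 rose and Lhx1, a homeobox gene induced by GDNF, fell, from 38.6 and 39.1 RPM in GSCLC_2 to 19.8 and 15.8 in GSCLC_4 (-1.09 ± 0.20, adjusted p = 0.0112 by limma). Sox2 was higher in GSCLC_4 (1.19 ± 0.19, adjusted p = 0.0035 by limma). The germ cell genes Sycp3, of the synaptonemal complex, and Tex19.1, which restrains retrotransposons, rose by 1.13 and 1.36. Hoxb5 and Hoxb6 fell by 1.97 and 1.71, to 1.32 to 6.26 RPM, and Ube2c, an enzyme that works with the anaphase-promoting complex, by 0.77. Col1a1, a collagen, rose from 48.1 and 66.8 to 120 and 126 RPM (1.10, adjusted p = 0.0465 by limma). The summed fibroblast list was 541 and 679 RPM in GSCLC_2 and 676 and 861 in GSCLC_4, and its part in the rise was not tested.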

How the data were processed

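RNA of 12 libraries (6 lines, 2 culture replicates each) was measured by SC3-seq on a SOLiD 5500XL, per the labels' protocols. Values for 26219 genes are in RPM (scaled to about the same sum in each library) as deposited by the authors. The submitters' processing notes name the build mm10 (GRCm38) and, as tools, TopHat 1.4.1, Cufflinks 2.2.0 and cutadapt 1.3. Parameters and strand use in counting: not given in the sources used here. Without strand, a gene and an antisense partner cannot be told apart.

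RPM sums were 999885 to 999962. Between 99.73% and 99.83% of low values were whole multiples of a step within 0.1, which gave the implied reads; about 50 values per library fell under 0.1 RPM and off the steps, so no count-based test was run. Values are log2(RPM + 1), which understates changes of low genes. Genes with 5 RPM in 2 of the 8 GSCLC libraries were kept. limma 3.58.1 (R 4.3.3) was fitted with a mean-variance trend on single libraries in 6 line groups for GSCLC_4 against GSCLC_2, two-sided, adjusted over all 11453 genes with 0.05 as threshold. On simulated data, 138 of 200 changed genes were recovered with 4 false calls for this comparison. A fit between the pairs on line means was also run, and its calls are not used, since that contrast chose the lines. Positions are RefSeq genes of GRCm38.p6, matched by gene ID for 24619 genes.

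Named genes were separated genes with at least 20 RPM in the higher pair: the 8 largest per direction outside chromosomes 6 and 8, 8 higher and 3 lower on chromosome 6, 3 per direction on chromosome 8, fixed landmark genes, list members past 2-fold, and the 6 largest calls per direction between GSCLC_4 and GSCLC_2. The lines, regions and 22 gene lists were chosen with earlier results of these data known. Distal chromosome 3 was added after its values were seen. Deviations of same-numbered replicates correlated at -0.137 to 0.106 between lines, so the numbers were not taken as pairs. Alternatives were the pseudocount, the filter, quantile normalisation, the lines in the fit, condition as a term, a replicate block and each library left out. A total of 0 columns of the table was left unused. A few of the genes picked for description are not reported here.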

Additional observations from a re-analysis of the deposited data

Results flagged for a closer look

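In 4 named genes the within-condition differences, GSCLC_4 minus GSCLC_1 and GSCLC_2 minus GSCLC_3, were themselves unequal by limma with Benjamini-Hochberg adjustment over all genes, a test added after the data were seen that called 96 genes in all (0.838%). For Pycard the first was 1.21 and the second 5.72, a gap of -4.51 (adjusted p = 3.61e-07). For Epas1 they were 1.61 and 3.92 (gap -2.31, adjusted p = 0.0278), and for Sox2 -0.94 and -2.34 (gap 1.39, adjusted p = 0.0135). In these 3 genes all libraries moved the same way and the size differed. For Lhx1 they were -0.98 and 0.39 (gap -1.36, adjusted p = 0.0231), so the direction differed. Line and condition cannot be told apart in this comparison.

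In single groups of 4 libraries, 1 library stood far from the other 3 in 9 of 156 groups, where chance gives about 1 in 20. Of GSCLC_1 and GSCLC_3, replicate 1 of GSCLC_1 was far from the rest for Epas1 (23.1 RPM) and Ret (221 RPM), replicate 1 of GSCLC_3 for Dusp4 (89.3 RPM), and replicate 2 of GSCLC_3 for Chd4 (299 RPM), Phb2 (474 RPM) and Tbx3 (2.70 RPM). Of GSCLC_2 and GSCLC_4, replicate 2 of GSCLC_2 was far for Gbp1 (1.3 RPM), replicate 1 of GSCLC_4 for Dppa3 (6.26 RPM) and replicate 2 of GSCLC_4 for Tbx3 (16.8 RPM).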

How the results depend on the processing

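The medians of chromosome 6 from 100 Mb (0.60) and of chromosome 8 (-0.18) moved by less than the spread of replicates under each alternative run; the first ran from 0.50 to 0.60, also with the region starting at 80 or 120 Mb. The median of distal chromosome 3 (-0.86) was -0.74 with a pseudocount of 5, -0.71 with a filter of 1 RPM and -0.92 after quantile normalisation, and -0.77 to -0.89 with 1 library left out. Between the pairs, 84 genes passed the limma threshold, 54 with only the 4 GSCLC lines and 40 to 90 with 1 library left out; nothing is read from these counts, since that contrast chose the lines. Calls between GSCLC_4 and GSCLC_2, 67 as reported, were 11 to 231 with 1 library left out (the lone library of a line is then assumed to vary like the other lines) and 65 with the replicate block. Separated genes, 1267 as reported, were 1617 to 1964 with 1 library left out, since fewer libraries have to be ordered. The median over all genes moved from 0.07 to 0.00 after quantile normalisation (-0.001). Of the values for single named genes, 746 kept within the replicate spread and 68 moved beyond it between the pairs. Of these, 17 values of 10 genes changed sign, and 0 of the 10 were separated genes. Of the 120 values for genes named between GSCLC_4 and GSCLC_2, 103 stayed called and 17 did not. Rhox5, Trf, Ppm1j, Apba3 and Mageb17-ps kept their calls in all 10 settings (highest adjusted p by limma 0.0393), while Gprc5c kept it in 6, Erbb3, Id1 and Mtap7d3 in 7 and Herpud1 in 8.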
